A study of Mus musculus with 8 samples.

Results

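The genes described here are the 10 feedback genes of MAP kinase signalling that belong to the dual-specificity phosphatase, Sprouty and Spred families: Dusp1, Dusp2, Dusp4, Dusp5, Dusp6, Dusp10, Spry1, Spry2, Spred1 and Spred2. They were found among the probe names of the arrays, brought up to date through accessions, symbols and older symbols. Of the 10, 9 had at least 1 probe and were tested, among 16310 genes tested in all, and Dusp5 had no probe under its name. These 9 genes had 15 probes of 41174. Each of the 15 was detected (well above background by the scanner software's flag) on all 8 arrays, so that no value of these genes is a bound. Some were nevertheless dim. The tested probes of Dusp4, Dusp10 and Spry1 had scaled signals of 22.3 to 41.0, 29.1 to 41.7 and 24.2 to 36.4. The 75th percentile of the spots of an array was 232 to 326 before scaling.

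RNA was measured in c-Kit+ fetal liver progenitors of C57Bl/6 mice. The cells of all groups were Ebf1-/-, that is, they lacked EBF1, the transcription factor that starts the B-lineage programme. They were grown on OP9 feeder cells, a mouse stromal line, in medium with interleukin 7 at 5 ng/ml and with stem cell factor and Flt3 ligand, each at 10 ng/ml. Each culture received a pMys retrovirus, and GFP+ cells were sorted 36 h later. The vector carried EBF1-H240A and GFP (group Ebf1-H240A, 3 arrays), wild-type EBF1 and GFP (group Ebf1wt, 3 arrays) or GFP alone (group Empty, 2 arrays). In EBF1-H240A a histidine is replaced by alanine. The proteins were thus made from a retroviral vector in knockout cells, and the feeder shared the dish with the sorted cells until the sort. The comparisons ask which feedback genes differ once either form of EBF1 is present, and where the 2 forms differ.

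Receptors for growth factors and cytokines switch on RAS, which activates the kinases RAF, MEK and ERK in turn, while stress and inflammatory signals act mainly through the related kinases JNK and p38. Dual-specificity phosphatases (DUSPs) remove the activating phosphates from ERK, JNK and p38. Sprouty and Spred proteins act higher up, between the receptor, RAS and RAF. Many of these genes are themselves induced by the kinases they restrain, which makes them brakes by feedback, and in early B-lineage cells the same pathway is driven by the pre-B cell receptor and by cytokine receptors.

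RefSeq promoter windows (GRCm38.p6) were matched for 9 of the 10 genes and missed for Dusp4. The windows of Dusp2, Spry2, Dusp1 and Spred2 are shown because they belong to genes with called changes and differ in their letters. The 250 bases before the start site are printed on the strand of the gene, with the letters CCCNNGGG, the core that EBF1 binds, in capitals. Dusp2 (chr2:127335909-127336158, plus strand) and Spry2 (chr14:105896820-105897069, minus strand) hold that core, and Dusp1 (chr17:26508473-26508722, minus strand) and Spred2 (chr11:19924192-19924441, plus strand) do not.
Dusp2: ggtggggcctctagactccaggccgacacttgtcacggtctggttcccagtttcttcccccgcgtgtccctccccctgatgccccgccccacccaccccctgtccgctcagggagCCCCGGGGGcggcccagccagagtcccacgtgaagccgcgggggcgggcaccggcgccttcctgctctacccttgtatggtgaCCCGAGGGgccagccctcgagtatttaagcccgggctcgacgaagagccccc
Spry2: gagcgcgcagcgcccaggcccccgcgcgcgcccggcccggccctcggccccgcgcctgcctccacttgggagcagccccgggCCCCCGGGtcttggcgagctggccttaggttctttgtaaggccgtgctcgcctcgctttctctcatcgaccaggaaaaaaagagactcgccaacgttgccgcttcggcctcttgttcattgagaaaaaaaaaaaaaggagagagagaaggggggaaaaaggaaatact
Dusp1: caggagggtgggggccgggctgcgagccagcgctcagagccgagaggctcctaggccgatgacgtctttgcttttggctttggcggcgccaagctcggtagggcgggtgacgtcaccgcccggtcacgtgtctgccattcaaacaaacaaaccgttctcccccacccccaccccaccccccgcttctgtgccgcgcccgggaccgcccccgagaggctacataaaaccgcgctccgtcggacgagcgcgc
Spred2: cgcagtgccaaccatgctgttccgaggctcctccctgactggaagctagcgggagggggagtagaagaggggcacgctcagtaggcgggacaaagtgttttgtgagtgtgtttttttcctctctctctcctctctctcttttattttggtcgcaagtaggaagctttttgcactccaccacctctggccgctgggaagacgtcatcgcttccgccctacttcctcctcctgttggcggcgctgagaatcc

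The windows, from 250 bases before to 50 bases after the start, were searched on both strands. The 9 windows held 57.0% to 72.3% G and C, and the RefSeq windows set beside them were not matched for this. CCCNNGGG was found in 4 of the 9 windows and in 13.7% of 32851 RefSeq windows. In Dusp2 it began at -135, -134 and -52 from the start site, the first 2 overlapping each other, in Spry2 at -168, in Dusp5 at -118 and in Spred1 at -43. TGACG, the core of the cAMP response element, was in 4 of the 9 windows, against 20.8% of all windows. Dusp1 held 3 of these, at -191, -143 and -140, the last 2 overlapping each other on opposite strands. Spred2 held 1 at -51, Dusp5 held 1 at -55 and Dusp2 held 1 at 6, after the start. The CArG box, where serum response factor binds, was in 1 of the 9 windows (Dusp5, at -82 and -72) and in 1.63% of all windows. GGAA, the core for ETS factors, was in 8 of the 9 windows, all but that of Dusp10, and in 96.0% of all windows. None of the 3 matches to CCCNNGGG in Dusp2 overlapped a match to another motif. These matches are letters in a window, with no binding measured.

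Dusp2 encodes a nuclear phosphatase of ERK and p38 that is largely restricted to blood cells and is induced when lymphocytes are activated. Its log2 signal, the scaled intensity on a log2 scale, was 14.56, 14.54 and 14.52 on the 3 Ebf1-H240A arrays, 14.70, 14.73 and 14.61 on the 3 Ebf1wt arrays, and 11.84 and 12.07 on the 2 Empty arrays. Every array with either form of EBF1 lay far above both Empty arrays, with no overlap. Relative to Empty, Dusp2 rose 6.00-fold with Ebf1-H240A, a log2 difference of 2.59 ± 0.08 (SE, n = 3 and 2, limma adjusted p = 3.35e-06), and 6.61-fold with Ebf1wt, a log2 difference of 2.72 ± 0.08 (adjusted p = 2.81e-06). Ordered by log2 difference from Empty, it stood at place 249 from the top of 16310 genes with Ebf1-H240A and at place 199 with Ebf1wt. The 3 Ebf1-H240A arrays lay below the 3 Ebf1wt arrays, but the difference of -0.14 did not pass the test (95% confidence interval -0.31 to 0.04, adjusted p = 0.336).

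Dusp2 had 2 probes on the array, in mm9 at chr2:127163930-127163989 (the brighter, which was tested) and at chr2:127162582-127162641, both on the plus strand. The sequence of the other probe is shown because its letters bear on which RNA it can bind. Its bases 54 to 59, in capitals, read GTGAGT, the letters common at the start of an intron, and no exon annotation of mm9 was used here.
Dusp2 other probe: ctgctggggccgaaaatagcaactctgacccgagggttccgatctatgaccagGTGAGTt
The log2 signal of that probe was 11.46, 11.41 and 11.47 with Ebf1-H240A, 11.53, 11.74 and 11.66 with Ebf1wt, and 8.85 and 8.81 with Empty. Its differences from Empty were 2.62 with Ebf1-H240A and 2.81 with Ebf1wt, close to those of the tested probe. Each of the 2 slides held 1 Empty array, and the other arm was a single array too for Ebf1wt on slide 1 and for Ebf1-H240A on slide 2. Differences within slides 1 and 2 are therefore given as values, without their p. For the tested probe of Dusp2 they were 2.72 and 2.44 with Ebf1-H240A, and 2.89 and 2.58 with Ebf1wt. Dusp2 was called in both comparisons with Empty under every alternative run over arrays of both slides, the lone Empty array that some of these leave being assumed to vary like the other groups.

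Dusp1 encodes a nuclear phosphatase of p38, JNK and ERK that is induced early by stress and growth factors. Its log2 signal was 8.10, 7.69 and 7.46 with Ebf1-H240A, 7.93, 8.09 and 7.87 with Ebf1wt, and 6.52 and 6.65 with Empty. All arrays with either form of EBF1 were above both Empty arrays, and the Ebf1-H240A arrays spread more widely than those with Ebf1wt (SD 0.32 and 0.11). Dusp1 rose 2.24-fold with Ebf1-H240A, a log2 difference of 1.17 ± 0.18 (SE, n = 3 and 2, limma adjusted p = 0.00214), and 2.60-fold with Ebf1wt, a log2 difference of 1.38 ± 0.18 (adjusted p = 0.00131), relative to Empty. The groups Ebf1-H240A and Ebf1wt overlapped, with a difference of -0.21 (95% confidence interval -0.59 to 0.17, adjusted p = 0.503). Within slides 1 and 2 the difference from Empty was 1.38 and 0.81 with Ebf1-H240A and 1.57 and 1.25 with Ebf1wt. Dusp1 had 1 probe, so that no other probe stands beside these values. The mm9 position recorded for that probe is shorter than the probe and is not given.

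Dusp4, another nuclear phosphatase that acts on ERK, JNK and p38, went the other way with Ebf1-H240A. Its log2 signal was 4.48, 4.64 and 4.91 with Ebf1-H240A, 5.21, 5.22 and 5.06 with Ebf1wt, and 5.13 and 5.36 with Empty. The 3 Ebf1-H240A arrays were the 3 lowest of the 8, while the Ebf1wt and Empty arrays overlapped. Dusp4 fell by 0.57 ± 0.14 on the log2 scale with Ebf1-H240A relative to Empty (SE, n = 3 and 2, limma adjusted p = 0.0152), and its difference with Ebf1wt was -0.08 (95% confidence interval -0.41 to 0.25, adjusted p = 0.685). The difference between Ebf1-H240A and Ebf1wt was -0.49 ± 0.12 and missed the threshold over all genes (95% confidence interval -0.78 to -0.19, adjusted p = 0.0713), so that Dusp4 is not shown to differ between the 2 forms. It was called without Ebf1-H240A 3 (-0.60, adjusted p = 0.0498) and when a probe had to be detected on all 8 arrays (adjusted p = 0.0411). Its other probe, in mm9 at chr8:35882045-35882104 against chr8:35884806-35884865 for the tested one, gave 3.30, 3.48 and 4.17 with Ebf1-H240A, 4.84, 4.53 and 4.09 with Ebf1wt, and 4.55 and 4.38 with Empty. There the Ebf1-H240A and Ebf1wt arrays overlapped, and the differences from Empty were -0.81 with Ebf1-H240A and 0.03 with Ebf1wt. The fall of Dusp4 was not called with another background correction and normalization together (normexp with quantile normalization, -0.18, adjusted p = 0.0576) or without Empty 2 (-0.46, adjusted p = 0.0986), and was called with quantile normalization alone (-0.66, adjusted p = 0.00905). Within slides 1 and 2 the difference was -0.57 and -0.45.

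**Figure D1:**
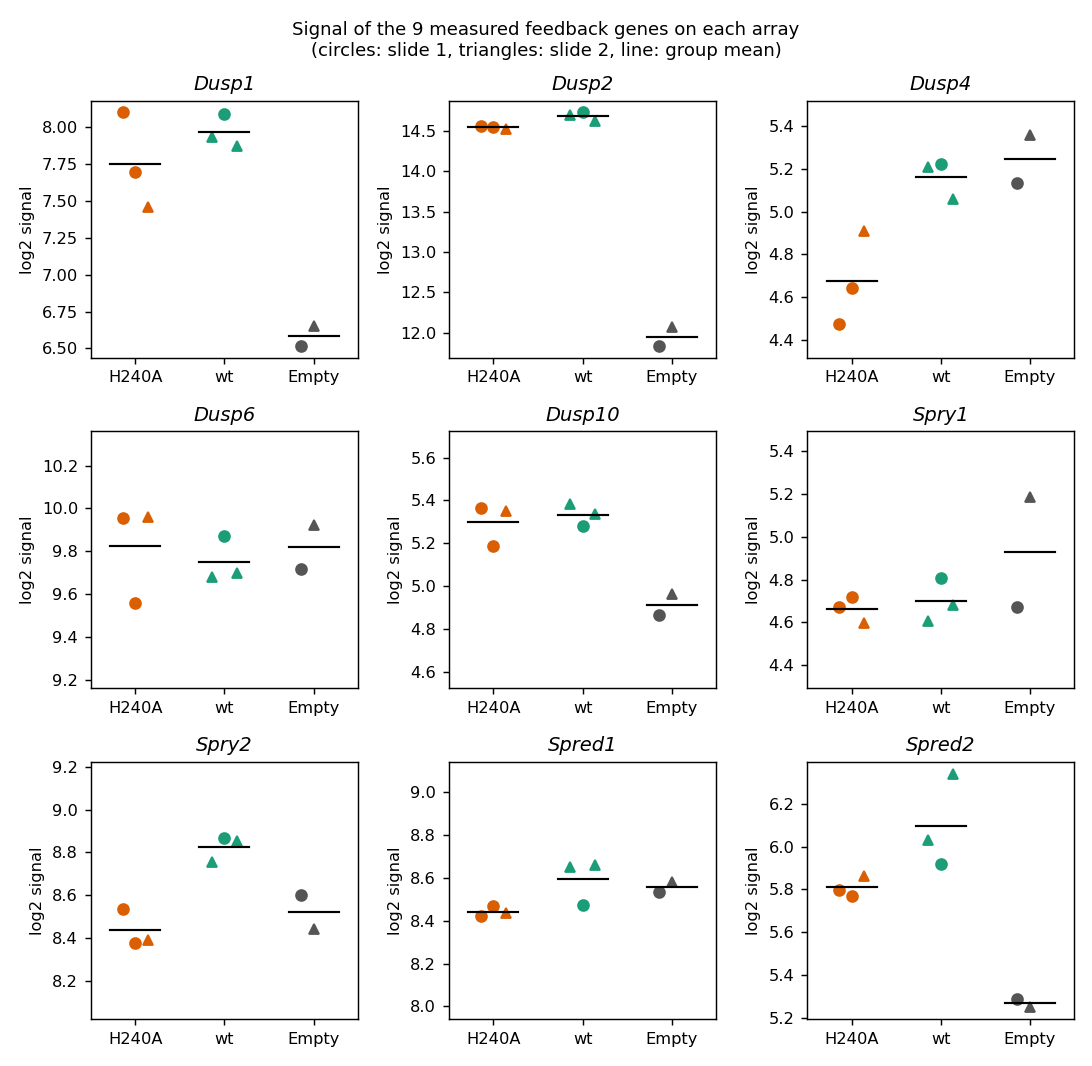
Log2 signal (y axis) of the tested probe of each of the 9 feedback genes on the 8 arrays, in the groups Ebf1-H240A (H240A), Ebf1wt (wt) and Empty (x axis), with a point per array (circles slide 1, triangles slide 2) and a line at the group mean. Dusp2 lies at 14.52 to 14.73 on the 6 arrays with EBF1 and at 11.84 and 12.07 on the Empty arrays, and Dusp4 is lowest on the 3 Ebf1-H240A arrays.

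Dusp6 encodes the cytoplasmic phosphatase of ERK and is a common readout of ERK activity. Its log2 signal was 9.96, 9.56 and 9.96 with Ebf1-H240A, 9.68, 9.87 and 9.70 with Ebf1wt, and 9.71 and 9.92 with Empty, and all 3 groups overlapped. The difference from Empty was 0.01 with Ebf1-H240A (95% confidence interval -0.34 to 0.35, limma adjusted p = 0.978) and -0.07 with Ebf1wt (-0.41 to 0.27, adjusted p = 0.749), and that between Ebf1-H240A and Ebf1wt was 0.08 (-0.23 to 0.38, adjusted p = 0.787). The sign of these small values turned under several alternatives. Its probe lies at chr10:98729985-98730044 in mm9.

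Dusp10 encodes a phosphatase that prefers JNK and p38. Its log2 signal was 5.37, 5.19 and 5.35 with Ebf1-H240A, 5.38, 5.28 and 5.33 with Ebf1wt, and 4.86 and 4.96 with Empty. Both groups with EBF1 lay above both Empty arrays and overlapped each other. Relative to Empty, Dusp10 rose 1.31-fold with Ebf1-H240A, a log2 difference of 0.39 ± 0.08 (SE, n = 3 and 2, limma adjusted p = 0.00686), and 1.34-fold with Ebf1wt, a log2 difference of 0.42 ± 0.08 (adjusted p = 0.00613). The difference between Ebf1-H240A and Ebf1wt was -0.03 (95% confidence interval -0.20 to 0.14, adjusted p = 0.846). The rise was not called under some other processing. With normexp correction and quantile normalization together it was 0.10 with Ebf1-H240A and 0.13 with Ebf1wt (adjusted p = 0.336 and 0.218), and in the authors' value table, whose normalization is not known, it was 0.17 and 0.23 (adjusted p = 0.330 and 0.219). With quantile normalization alone it was 0.31 and 0.36 and was called (adjusted p = 0.0249 and 0.0163). With a common median it was 0.25 with Ebf1-H240A (adjusted p = 0.0458). Within slides 1 and 2 it was 0.41 and 0.39 with Ebf1-H240A and 0.42 and 0.40 with Ebf1wt. The probe lies at chr1:185898608-185898667 in mm9.

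Sprouty proteins dampen the step from receptor tyrosine kinases to RAS. Spry2 gave 8.54, 8.38 and 8.39 with Ebf1-H240A, 8.75, 8.87 and 8.86 with Ebf1wt, and 8.60 and 8.44 with Empty. The 3 Ebf1wt arrays were the 3 highest of the 8, and the Ebf1-H240A and Empty arrays overlapped. Spry2 rose 1.23-fold with Ebf1wt, a log2 difference of 0.30 ± 0.08 from Empty (SE, n = 3 and 2, limma adjusted p = 0.0270), and its difference with Ebf1-H240A was -0.09 (95% confidence interval -0.28 to 0.11, adjusted p = 0.436). Of the 9 genes, it was the only one called between the forms of EBF1: it was lower with Ebf1-H240A than with Ebf1wt by a log2 difference of -0.39 ± 0.07 (n = 3 and 3, adjusted p = 0.0295).

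The other Spry2 probe did not show this. The tested probe lies at chr14:106291385-106291444 in mm9 and the other at chr14:106291901-106291960, both on the minus strand. The other probe gave 5.58, 6.00 and 5.58 with Ebf1-H240A, 5.40, 5.38 and 5.67 with Ebf1wt, and 5.39 and 5.41 with Empty, and its difference between Ebf1-H240A and Ebf1wt was 0.24. With the mean of both probes the difference was -0.08 (adjusted p = 0.627), and that of Ebf1wt from Empty was 0.19 (adjusted p = 0.125). Within slides 1 and 2 the tested probe gave -0.41 and -0.41 between Ebf1-H240A and Ebf1wt, and 0.27 and 0.36 between Ebf1wt and Empty. With Ebf1wt against Empty it also fell short without Empty 2 (adjusted p = 0.152), Ebf1wt 2 (0.0796) or Ebf1wt 3 (0.0664). For Ebf1-H240A against Ebf1wt, no call remained when any 1 of the 6 arrays was left out (-0.44 to -0.36, adjusted p = 0.0507 to 0.102).

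Spry1 gave 4.67, 4.72 and 4.60 with Ebf1-H240A, 4.61, 4.81 and 4.68 with Ebf1wt, and 4.67 and 5.19 with Empty. The Empty arrays stood apart from each other by more than the spread of either group with EBF1, and all groups overlapped. The difference from Empty was -0.27 with Ebf1-H240A (95% confidence interval -0.62 to 0.09, limma adjusted p = 0.194) and -0.23 with Ebf1wt (-0.59 to 0.13, adjusted p = 0.274). Set against Empty 2 alone it was called, at -0.53 with Ebf1-H240A (adjusted p = 0.0144) and -0.49 with Ebf1wt (adjusted p = 0.0223), where the lone Empty array is assumed to vary like the other groups. The difference between Ebf1-H240A and Ebf1wt was -0.04 (-0.35 to 0.28, adjusted p = 0.908). Its probe lies at chr3:37543194-37543253 in mm9.

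Spred proteins bind neurofibromin and limit RAS and RAF. Spred2 gave 5.80, 5.77 and 5.86 with Ebf1-H240A, 6.03, 5.92 and 6.34 with Ebf1wt, and 5.29 and 5.25 with Empty. Ebf1wt arrays were highest, Ebf1-H240A arrays lay in between and Empty arrays were lowest, without overlap. Relative to Empty, Spred2 rose 1.46-fold with Ebf1-H240A, a log2 difference of 0.54 ± 0.12 (SE, n = 3 and 2, limma adjusted p = 0.0107), and 1.77-fold with Ebf1wt, a log2 difference of 0.83 ± 0.12 (adjusted p = 0.00223). The difference of -0.29 between Ebf1-H240A and Ebf1wt did not pass the test (95% confidence interval -0.54 to -0.03, adjusted p = 0.179). Its other probe, at chr11:19922350-19922409 in mm9 against chr11:19923715-19923774 for the tested one, differed from Empty by 0.38 with Ebf1-H240A and by 0.46 with Ebf1wt. On that probe the Ebf1-H240A and Ebf1wt arrays overlapped, at a difference of -0.08. With Ebf1-H240A the call was lost without Empty 2 (0.52, adjusted p = 0.0588). Within slides 1 and 2 the difference was 0.50 and 0.62 with Ebf1-H240A and 0.63 and 0.94 with Ebf1wt. After normexp correction with quantile normalization the rises were smaller, 0.24 with Ebf1-H240A and 0.35 with Ebf1wt, and were called (adjusted p = 0.0102 and 0.00172), and in the authors' value table the rise with Ebf1wt was 0.54.

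Spred1 gave 8.42, 8.47 and 8.43 with Ebf1-H240A, 8.65, 8.47 and 8.66 with Ebf1wt, and 8.53 and 8.58 with Empty. Its Ebf1-H240A arrays were the 3 lowest by a narrow margin, and Ebf1wt and Empty overlapped. The difference from Empty was -0.11 with Ebf1-H240A (95% confidence interval -0.29 to 0.06, limma adjusted p = 0.259) and 0.04 with Ebf1wt (-0.14 to 0.22, adjusted p = 0.724). Ebf1-H240A differed from Ebf1wt by -0.15 (-0.31 to 0.00, adjusted p = 0.233). The 2 other, dimmer Spred1 probes differed from Empty by 0.02 and -0.05 with Ebf1-H240A and by 0.33 and 0.34 with Ebf1wt, and by -0.30 and -0.39 between Ebf1-H240A and Ebf1wt. The tested probe lies at chr2:117007850-117007909 in mm9 and the dimmer ones at chr2:116997721-116997780 and chr2:117003056-117003115.

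**Figure D2:**
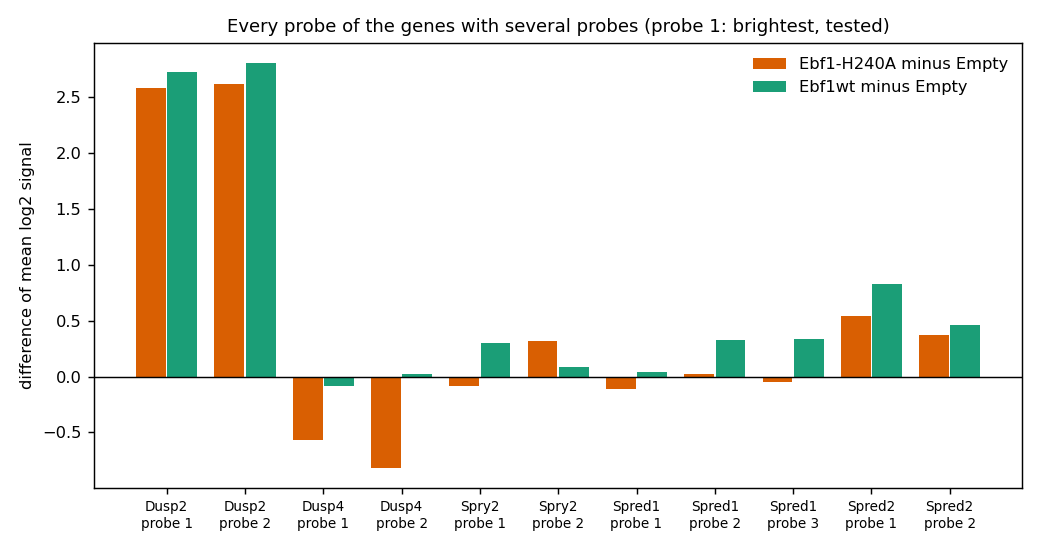
Difference of mean log2 signal (y axis) of every probe of the 5 feedback genes with several probes (x axis), for Ebf1-H240A minus Empty and Ebf1wt minus Empty. The bars are descriptions without error, and the probes of Dusp2 give 2.59 and 2.62 with Ebf1-H240A, whereas those of Spry2 give -0.09 and 0.32.

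Counted over the 9 genes, Dusp1, Dusp2, Dusp10 and Spred2 were called higher and Dusp4 lower with Ebf1-H240A than with Empty, and 4 genes were not called. In that comparison 21.6% of all 16310 genes were called higher and 23.0% lower (44.6% in all). With Ebf1wt, Dusp1, Dusp2, Dusp10, Spry2 and Spred2 were called higher than with Empty and none (0) lower, against 17.2% and 21.3% of all genes (38.4% in all, 6264 genes with limma, and 7756 at an unadjusted p under 0.05). None (0) of the 4 remaining genes was called lower, and their unadjusted p was above 0.05. With Ebf1-H240A against Ebf1wt, Spry2 was called lower and none (0) higher, where 2.72% of all genes were called lower and 3.64% higher (6.36% in all). Both comparisons with Empty share the same 2 Empty arrays, so that they are not independent of each other.

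The median log2 difference of the 9 genes was 0.01 with Ebf1-H240A and 0.30 with Ebf1wt relative to Empty, beside medians of -0.00 and -0.04 over all genes. For Ebf1-H240A against Ebf1wt it was -0.15, beside 0.02 over all genes. In that comparison the tested probes of 5 of the 9 genes (Dusp2, Dusp4, Spry2, Spred1 and Spred2) did not overlap between the groups, each time with Ebf1-H240A lower. The same held for 12.9% of all genes (17.0% were higher without overlap, as was none (0) of the 9). On their other probes, Dusp2 and Spred1 kept this order without overlap, while for Dusp4, Spry2 and Spred2 the groups overlapped. Relative to Empty, 4 of the 9 were higher without overlap with Ebf1-H240A (31.5% of all genes) and 2 lower (34.0%), and 5 were higher (26.5%) and 0 lower (34.8%) with Ebf1wt. All 8 arrays entered each count, and no test was run over the 9 genes as a list. When arrays were scaled to a common median in place of the 75th percentile, the median of all genes moved to -0.14 with Ebf1-H240A and -0.13 with Ebf1wt relative to Empty. The overall split of calls then moved to 2561 higher and 5483 lower, against 3516 and 3756, with Ebf1-H240A, and to 2215 and 4937, against 2798 and 3466, with Ebf1wt. For Ebf1-H240A against Ebf1wt it was 477 and 650, against 594 and 444. Such a rescaling shifts all genes of an array alike, so that the distance of a gene from the median of all genes, for Dusp2 2.59 with Ebf1-H240A and 2.76 with Ebf1wt, is the same under both by construction.

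**Figure D3:**
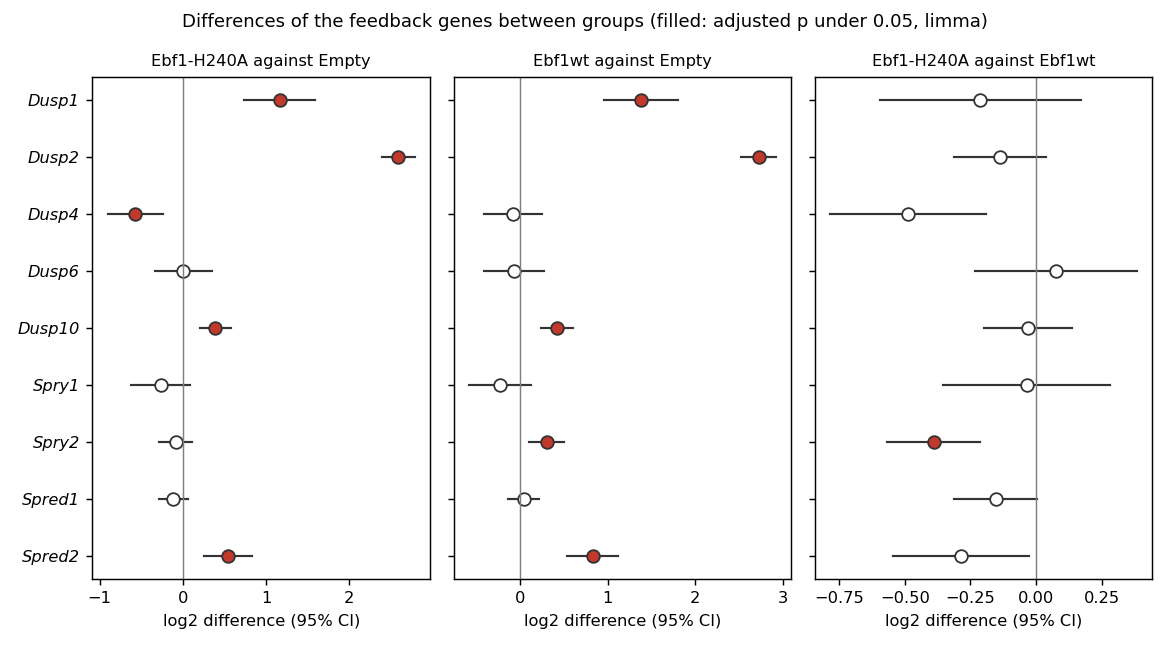
Log2 difference with its 95% confidence interval (x axis) of the 9 feedback genes (y axis) for Ebf1-H240A against Empty, Ebf1wt against Empty and Ebf1-H240A against Ebf1wt, with filled points for an adjusted p under 0.05 in limma. Each panel has its own scale. Dusp2 at 2.59 and 2.72 and Dusp1 at 1.17 and 1.38 lie farthest to the right in the comparisons with Empty, and Spry2 at -0.39 is the filled point in the third panel.

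By the moderated F of limma over the 3 groups, Dusp2 varied most of the 9 genes relative to its spread (F = 643). The log2 signal of 5 other named genes followed it most closely over the 8 arrays. Etv3, an ETS-family repressor, and Rflnb, which encodes a filamin-binding protein, each had r = 0.999. Hemk1, a methyltransferase gene, Tnfrsf13b, which encodes TACI, a receptor on B cells, and Plxna1, a receptor for semaphorins, each had r = 0.998. The differences of these 5 genes from Empty, in that order, were 1.78, 3.12, 1.51, 0.88 and 2.88 with Ebf1-H240A. With Ebf1wt they were 1.87, 3.33, 1.65, 0.96 and 2.99. The 8 arrays fall into 3 groups, so that these correlations mostly restate the step between Empty and EBF1, and they are given as a description.

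The rest of the pathway was counted over lists of genes. Of all 16310 genes, 21.6% were called higher and 23.0% lower with Ebf1-H240A than with Empty, and 17.2% and 21.3% with Ebf1wt. Between the forms, 3.64% were called higher and 2.72% lower with Ebf1-H240A. The counts of each list below stand beside these shares, and no test was run over a list. Among other dual-specificity phosphatases, 13 of 16 listed genes were tested. With Ebf1-H240A, 2 were called higher and 3 lower than with Empty, and with Ebf1wt 0 higher and 4 lower. The largest falls were those of Dusp7, a cytoplasmic ERK phosphatase like Dusp6, by 1.42 ± 0.09 on the log2 scale with Ebf1-H240A (SE, limma adjusted p = 3.96e-05) and by 1.76 ± 0.09 with Ebf1wt (adjusted p = 2.06e-05). Dusp3, a small phosphatase of ERK and JNK, fell by 0.95 and 1.08, and the atypical phosphatase gene Dusp12 fell by 0.62 and 0.63. Dusp22, an atypical phosphatase of the JNK pathway, was the 1 gene of the list called between the forms (0.28 ± 0.06 higher with Ebf1-H240A than with Ebf1wt, adjusted p = 0.0430). The median of the list was 0.09, -0.07 and 0.18 for Ebf1-H240A against Empty, Ebf1wt against Empty and Ebf1-H240A against Ebf1wt. Dusp14, Dusp15 and Dusp26 were detected on none of the arrays.

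Of 21 other brakes on receptors and RAS, 19 were tested, and Spry3 and Spry4 were detected on none of the arrays. With Ebf1-H240A, 5 were called higher and 6 lower than with Empty, and with Ebf1wt 4 and 6. Sh2b3, which encodes the adaptor LNK that restrains cytokine receptors, rose by 1.43 ± 0.08 with Ebf1-H240A (SE, limma adjusted p = 2.45e-05) and by 1.07 ± 0.08 with Ebf1wt (adjusted p = 0.000109). Dok3, an adaptor that recruits inhibitors in B cells, rose by 1.23 and 1.17, and its relative Dok1 rose by 0.82 with Ebf1wt. Lrig1, a receptor antagonist, was detected on neither Empty array and was at least 1.35-fold higher with Ebf1-H240A (adjusted p = 0.0277). Between Ebf1-H240A and Ebf1wt, the RAS GTPase activator Rasal1 was lower by a difference of -0.49 (adjusted p = 0.00830) and Sh2b3 higher by 0.36 (adjusted p = 0.0326). The list's median was -0.07, -0.06 and 0.06 in the order Ebf1-H240A against Empty, Ebf1wt against Empty and Ebf1-H240A against Ebf1wt.

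Of the 28 genes of the route from RAS to ERK, 27 were tested. With Ebf1-H240A, 5 were called higher and 8 lower than with Empty, and the counts with Ebf1wt were also 5 and 8. None (0) was called between Ebf1-H240A and Ebf1wt, where limma called 1038 of all genes and 3720 had an unadjusted p under 0.05. The exchange factors that load RAS or RAP with GTP moved in different directions. Rasgrp2 rose by 1.89 ± 0.12 with Ebf1-H240A (SE, limma adjusted p = 5.26e-05) and by 1.94 ± 0.12 with Ebf1wt (adjusted p = 5.85e-05). Rasgrp1 fell by 0.91 and 0.84, and Rasgrp3 fell by 2.26 ± 0.53 with Ebf1-H240A (adjusted p = 0.0126). The adaptor Gab3 fell by 0.79 with Ebf1wt. The median of the list was -0.07, -0.10 and 0.04.

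All 19 listed genes of the JNK and p38 route were tested, and 9 were called higher and 4 lower with Ebf1-H240A than with Empty, against 7 and 3 with Ebf1wt. Gadd45a, which encodes a stress protein that activates the kinase upstream of p38 and JNK, rose by 1.84 ± 0.10 with Ebf1-H240A (SE, limma adjusted p = 2.73e-05) and by 1.61 ± 0.10 with Ebf1wt (adjusted p = 6.08e-05). Its relative Gadd45b rose by 1.33 and 0.95, and Gadd45g rose by 0.90 with Ebf1wt. Map3k5, the stress kinase gene also named ASK, rose by 0.91 with Ebf1-H240A, and was the 1 gene of this list called between the forms (0.50 ± 0.06 higher with Ebf1-H240A than with Ebf1wt, adjusted p = 0.00884). The list's median was 0.14 and 0.10 relative to Empty, and 0.11 between the forms.

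Genes known to respond to ERK, among them immediate early genes, were tested for 25 of 28 listed. With Ebf1-H240A, 12 were called higher and 3 lower than with Empty, and with Ebf1wt 13 and 1. Plaur, the urokinase receptor gene, rose by 3.24 ± 0.10 with Ebf1-H240A (SE, limma adjusted p = 3.35e-06) and by 2.80 ± 0.10 with Ebf1wt (adjusted p = 6.17e-06). Etv5, an ETS factor gene, rose by 2.72 and 2.38, with 1 of the 2 Empty arrays well above background, and the cyclin gene Ccnd1 rose by 1.85 and 1.41. Between Ebf1-H240A and Ebf1wt, 3 were called higher and 1 lower. The receptor gene Epha2 was lower with Ebf1-H240A by a difference of -0.76 (adjusted p = 0.0240), and Egr3, an immediate early factor gene, and Ccnd1 were higher by 0.67 and 0.44 (adjusted p = 0.0148 and 0.0189). The list's median was 0.33 and 0.47 relative to Empty, and -0.12 between the forms.

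**Figure D4:**
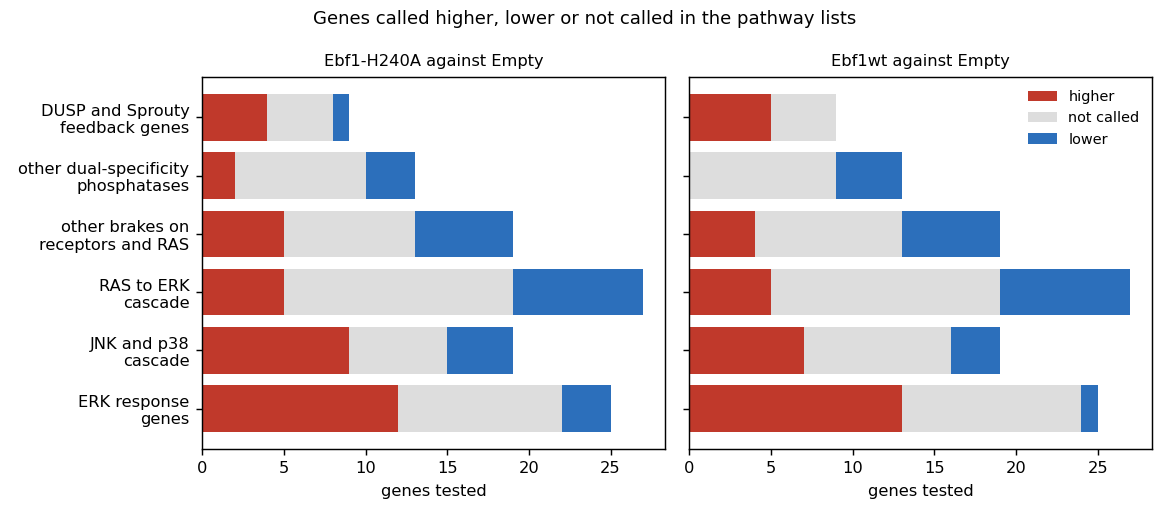
Number of genes tested (x axis) that were called higher, not called or called lower in each pathway list (y axis), for Ebf1-H240A against Empty and Ebf1wt against Empty. In the list of ERK response genes 12 and 13 of 25 were called higher, and in that of the route from RAS to ERK 8 of 27 were called lower in each comparison. Over all genes, 21.6% and 17.2% were called higher and 23.0% and 21.3% lower.

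The receptors for the factors in the medium also differed. Il7r, for interleukin 7, fell by 1.45 ± 0.08 with Ebf1-H240A (SE, limma adjusted p = 2.03e-05) and by 1.09 ± 0.08 with Ebf1wt (adjusted p = 8.79e-05). Kit, for stem cell factor, fell by 1.14 and 0.79. Flt3, for Flt3 ligand, rose by 0.34 with Ebf1wt (adjusted p = 0.0357) and was called lower with Ebf1-H240A, both relative to Empty. It was lower with Ebf1-H240A than with Ebf1wt by a difference of -0.66 (adjusted p = 0.0109). Il2rg, the common chain of the interleukin 7 receptor, rose by 0.50 with Ebf1-H240A. Of the 4 genes, 1 was called higher and 3 lower with Ebf1-H240A than with Empty, and 1 and 2 with Ebf1wt. Between the forms, 0 were called higher and 2 lower with Ebf1-H240A.

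The arrays had 54.8% to 59.8% of their spots well above background, and 0 spots were saturated. Of 8 progenitor markers, 7 were tested, among them Cd34 and Ptprc. Kit, Flt3 and Il7r are among them too, and were already counted above as receptors. The 7 markers moved with the groups: 1 was called higher and 5 lower with Ebf1-H240A than with Empty, and 2 and 4 with Ebf1wt. The list medians were -1.14 and -0.79. The summed signal of the 7 markers was 82837 to 88348 with Ebf1-H240A, 85072 to 91047 with Ebf1wt, and 80397 and 78904 with Empty. Of 9 hepatocyte markers on the array, 8 were detected on none of the arrays, Alb and Afp among them, and Ahsg, which encodes a plasma protein of the liver, fell by 3.37 ± 0.09 with Ebf1-H240A (SE, limma adjusted p = 2.10e-06) and by 1.68 ± 0.09 with Ebf1wt (adjusted p = 3.21e-05). Its scaled signal was 49.4 to 51.3 with Ebf1-H240A, 153 to 184 with Ebf1wt, and 516 and 528 with Empty. Ebf1 itself gave a log2 signal of 10.15 to 10.44 with Ebf1-H240A, 10.17 to 10.19 with Ebf1wt, and 10.10 and 10.19 with Empty, so that this probe does not tell the vectors apart and checks no label. The summed signal of 10 B-lineage markers was 28701 to 32331 with Ebf1-H240A, 52165 to 58507 with Ebf1wt, and 865 and 940 with Empty. Of these, 7 were called higher and 1 lower with Ebf1-H240A than with Empty, and 10 and 0 with Ebf1wt. Between the forms, 1 was called higher and 5 lower with Ebf1-H240A. EBF1 starts the B-lineage programme, so that these values are an outcome of the experiment and no independent check of the labels. Pax5 was detected on none of the arrays.

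Markers of other cells moved with the groups as well. Over all genes, 21.6% were called higher and 23.0% lower with Ebf1-H240A than with Empty, and 17.2% and 21.3% with Ebf1wt. Of 20 stromal markers tested, 11 were called higher and 0 lower with Ebf1-H240A than with Empty, and 7 and 0 with Ebf1wt. Their summed signal was 14505 to 15789 with Ebf1-H240A, 12518 to 15062 with Ebf1wt, and 10255 and 10742 with Empty, while Pdgfra, Lum and Postn were detected nowhere. Of 14 myeloid markers, 9 were called higher and 5 lower with Ebf1-H240A, and 6 and 5 with Ebf1wt. Their summed signal was 149386 to 167692 with Ebf1-H240A, 149339 to 160762 with Ebf1wt, and 117327 and 124700 with Empty. The mean of their log2 signals was 8.73 to 9.21 with Ebf1-H240A, 8.01 to 8.28 with Ebf1wt, and 7.72 and 7.78 with Empty. Between the forms, 4 were called higher and 0 lower with Ebf1-H240A than with Ebf1wt. Of 12 markers of T and innate lymphoid cells, 10 were called lower in each comparison with Empty, with sums of 23968 to 29141, 28749 to 34484, and 45614 and 53211 in the order Ebf1-H240A, Ebf1wt and Empty. Of 6 erythroid markers tested, 1 was called higher and 3 lower in each comparison with Empty, with summed signals of 1912 to 2007 with Ebf1-H240A, 2627 to 3184 with Ebf1wt, and 10845 and 11774 with Empty. The beta-globin gene Hbb-bt fell by 3.58 with Ebf1-H240A and by 3.13 with Ebf1wt, while Alas2, for an enzyme of heme synthesis, was detected on neither of the Empty arrays and was at least 23.4-fold higher with Ebf1-H240A and at least 43.6-fold higher with Ebf1wt. Of 10 mast cell markers, 7 were detected on none of the arrays, and of the 3 tested, 1 was called higher and 1 (Cpa3) lower in each comparison with Empty, with summed signals of 202 to 401 with Ebf1-H240A, 261 to 308 with Ebf1wt, and 418 and 409 with Empty. The part of these cells in the values of Dusp1, Dusp2 and the other feedback genes was not tested. In sorted bulk samples, fewer cells of a type and less RNA per cell cannot be told apart.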

How the data were processed

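The arrays are 1-colour Agilent arrays, read with Feature Extraction 10.5.1.1, according to the submitters' processing notes. The deposited processed signal is an intensity on a linear scale with background and a spatial trend removed, per the file headers. The headers also name mm9 as the build of the probe positions and flag outlier spots and spots well above background. The value table deposited by the authors holds log2 values. For its normalization and centring, no method was given in the sources used here. Column medians were 4.90 to 4.93, it correlated with the scanner log2 values at r = 0.972 to 0.979, and it served only as an alternative.

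On each array the 43379 non-control spots were scaled to a common 75th percentile, which had been 232 (Ebf1-H240A 3) to 326 (Empty 2), then set to at least 1 and taken to log2. Outlier spots were dropped, and spots that share a probe were averaged. Probes flagged well above background on 2 or more of 8 arrays were kept (25008 of 41174), and 24 of these lacked a value somewhere and did not enter the fit. RefSeq's GRCm38.p6 table updated probe names (27816 through accessions, 5503 through symbols, 380 through older symbols), and 7475 names stayed as in the files. The brightest kept probe stood for each of 16310 genes. Groups were compared with limma 3.58.1 (R 4.3.3, lmFit then eBayes), with all 8 arrays, no covariate, 5 residual and 1.80 prior degrees of freedom. A gene was called where its p, adjusted by Benjamini and Hochberg over every gene tested, was under 0.05. A gene detected on no array of a group has only a bound, given as "at least". That bound compares the mean of the brighter group with the dimmer group's mean of the higher, per array, of the lowest signal well above background and the probe's own.

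No label says that replicates were separate cultures or animals. The p-values then reflect only how these arrays vary, which may be technical, and the number of arrays limits the precision. Slide 1 held Ebf1-H240A 1 and 2, Ebf1wt 2 and Empty 1, and slide 2 held the other 4 arrays. The feedback genes, gene lists and rules were chosen with earlier results of these data known. All 10 feedback genes are named, of each other list at most the 3 called genes with the largest difference in a comparison, and for the feedback gene with the largest moderated F the 5 most correlated genes. Alternatives covered background correction, scaling, the filter on dim probes, the floor before log2, the choice of probe, slide, replicate number, a mean-variance trend, the 2 groups alone and each array left out.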

Additional observations from a re-analysis of the deposited data

Results flagged for a closer look

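On its tested probe, Spry2 was called between the 2 forms of EBF1. Its log2 differences from Empty were -0.09 with Ebf1-H240A, which was not called, and 0.30 with Ebf1wt, so that opposite directions are not shown. The difference itself was tested with limma and was -0.39 ± 0.07 for Ebf1-H240A minus Ebf1wt (SE, n = 3 and 3, adjusted p = 0.0295), with all 3 Ebf1-H240A arrays below all 3 Ebf1wt arrays. The other Spry2 probe had 0.24 for the same difference, and the adjusted p lay between 0.00691 and 0.627 over the 20 alternatives run. The call was lost under 12 of the 20, the fits within a slide among them.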

How the results depend on the processing

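Each log2 difference of the 9 genes was recomputed under 19 or 20 alternatives, 522 values in all. Of these, 454 kept their sign and their side of the threshold, and 42 lost a call. Another 5 gained a call, and 21 turned their sign without being called. Several alternatives change the p of a tested probe but not its log2 difference, so that a kept sign there was fixed in advance. Dusp1 with Ebf1-H240A against Empty stayed at 1.17 without the filter on dim probes, with a floor of 10 and with a mean-variance trend. Such values are counted among the 454. The fits within a slide had 1 residual degree of freedom, 1 Empty array and 1 array of Ebf1wt (slide 1) or Ebf1-H240A (slide 2), whose spread is assumed to be that of the group with 2, so that a call or a lost call there says little.

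Genes called with Ebf1-H240A against Empty numbered 1101 within slide 1 and 322 within slide 2 (7272 overall), and feedback genes called higher 1 in each slide. Feedback genes called lower numbered 0 with normexp and quantile normalization together ("normexp" here), 2 with a common median (Dusp4 and Spred1), 0 within each slide, and 0 (without Empty 2) to 2 (without Empty 1) with an array left out. With Ebf1wt against Empty, 133 and 398 genes were called within slides 1 and 2 (6264 overall), feedback genes called higher numbered 1 in each slide, and those called lower 0 to 1 with an array left out (Spry1 without Empty 1). Between Ebf1-H240A and Ebf1wt, 1038 genes were called, but 641 in the value table, 338 without the filter, 646 with the slide as a block, 1692 with a mean-variance trend and 365 to 839 with an array left out. Within slides 1 and 2 limma called 0 there, with 1526 and 1600 genes at an unadjusted p under 0.05. Feedback genes called lower there numbered 0 in the value table, 0 without the filter, 0 with the mean over probes, 0 within each slide, 2 with detection on all 8 arrays, and 0 to 1 with an array left out. The causes were not tested.

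The values below do not decide whether the replicate numbers pair the arrays. Each group mean came from few arrays, and some same-numbered arrays lay on different slides. Correlations between differently numbered arrays are not given for comparison. Deviations from the group means correlated between same-numbered arrays at 0.16, -0.23 and 0.09 for Ebf1-H240A and Ebf1wt, at 0.19 and 0.02 for Ebf1-H240A and Empty, and at -0.04 and -0.33 for Ebf1wt and Empty. With the replicate number as a block, 360 genes were called, 0 of them feedback genes, between Ebf1-H240A and Ebf1wt, and Dusp6 with Ebf1-H240A against Empty was -0.015.

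Signs turned only for differences that were not called. Dusp6 with Ebf1-H240A against Empty was -0.040 with normexp, -0.13 with a common median and -0.028 in the value table. Within slide 1, Spry1 was 0.024 with Ebf1-H240A and 0.14 with Ebf1wt against Empty, and with Ebf1wt Dusp4 was 0.090, Dusp6 0.16 and Spred1 -0.061. Spred1 with Ebf1wt was -0.0027 with normexp and -0.059 with a common median, and Spry2 with Ebf1-H240A was 0.12 with the mean over probes. Dusp6 for Ebf1-H240A against Ebf1wt was -0.11 within slide 1. With each array left out in turn, Dusp6 with Ebf1-H240A against Empty lay between -0.10 and 0.14, and with Ebf1wt against Empty Dusp4 lay between -0.20 and 0.031, Dusp6 between -0.17 and 0.034 and Spry1 between -0.49 and 0.028, with the positive values without Empty 2. For Ebf1-H240A against Ebf1wt, Dusp10 lay between -0.063 and 0.026 (without Ebf1-H240A 2) and Spry1 between -0.082 and 0.019 (without Ebf1wt 2).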
